A study of Mus musculus with 2 samples.

Results

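The 7 lysosomal cathepsin genes Ctsa, Ctsb, Ctsc, Ctsd, Ctsh, Ctss and Ctsz and the 3 cystatin genes Cst3, Cst7 and Cstb were examined in mouse hematopoietic stem cells (HSCs) sorted by a Tomato reporter of Satb1, the gene of a chromatin organizer of lymphoid cells. These 10 genes, of 23210 used, were picked by name from a list selected on FPKM values of the same libraries (fragment numbers scaled by transcript length and sequencing depth), so their values are a description without a test. RNA was sequenced from Satb1-Tomato-negative cells (here Tomato-negative, SATB1-negative in the plots) and Satb1-Tomato-positive cells (here Tomato-positive, SATB1-positive in the plots), both taken from the LSK gate (lineage-negative, Sca-1-positive, Kit-positive) as CD150-positive and Flt3-negative. Each group had 1 library, and the labels give no strain, age or number of animals for either. Every value therefore rests on 1 library, and no spread between animals or sorts is known.

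Cathepsins are proteases of endosomes and lysosomes. Most are papain-like cysteine proteases (Ctsb, Ctsc, Ctsh, Ctss and Ctsz), Ctsd encodes an aspartic protease and Ctsa a serine carboxypeptidase. They are made as inactive precursors, carried to the lysosome largely by mannose 6-phosphate receptors and activated at acid pH. Cystatins bind papain-like cathepsins in the active-site cleft and block them; they do not inhibit Ctsa or Ctsd. Cystatin C (Cst3) is secreted by most cells, stefin B (Cstb) is mainly cytosolic and nuclear, and cystatin F (Cst7) is a leukocyte cystatin that reaches lysosomes and, as a monomer, inhibits cathepsin C. In blood cells cathepsin C removes the activation dipeptide from the serine proteases stored in granules.

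The cystatin gene Cst7 was the member that stood apart. It was at 11.99 FPKM in the Tomato-negative and 44.6 FPKM in the Tomato-positive library, 3.72-fold higher (95% counting interval 3.28 to 4.24; about 327 and 930 fragments). The 7 cathepsin genes differed by far less, between 0.926-fold for Ctsb and 1.32-fold for Ctsh, and Cst3 was level at 248.5 and 248.4 FPKM. Cstb went the other way, at 40.7 FPKM in the Tomato-negative and 28.4 FPKM in the Tomato-positive library.

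The rule of size asked for a difference of 1 or more, in either direction, between the log2(FPKM + 1) of the 2 libraries (positive minus negative, called the log2 ratio), and for a level of 5 FPKM in the higher one. All 10 genes reached that level. Of the 10, 1 (Cst7, log2 ratio 1.81) was counted as higher and 0 as lower. Over all 9308 genes with at least 5 FPKM, the rule counted 1.31% as higher and 0.688% as lower. The median log2 ratio of the 10 was 0.14, beside -0.0002 over the 9308 genes, and their median absolute log2 ratio was 0.18, beside 0.16. By size, the Cst7 ratio was the 35th highest of the 9308 and the Cstb ratio the 392nd lowest.

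Each interval beside a fold rests on the fragments behind both FPKM, worked out from transcript length and an approximate depth, 34920000 fragments in the Tomato-negative and 26680000 in the Tomato-positive library. They cover counting error only, not the spread between animals or sorts. At this depth such an interval is narrow: it excluded 1 for 9 of the 10 genes, but also for 66.7% of the 8379 genes for which it was computed. An interval clear of 1 therefore does not set a gene apart from the rest of the transcriptome. Satb1, whose reporter defined the sort, was at 2.37 FPKM in the Tomato-negative and 8.26 FPKM in the Tomato-positive library.

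**Figure D1:**
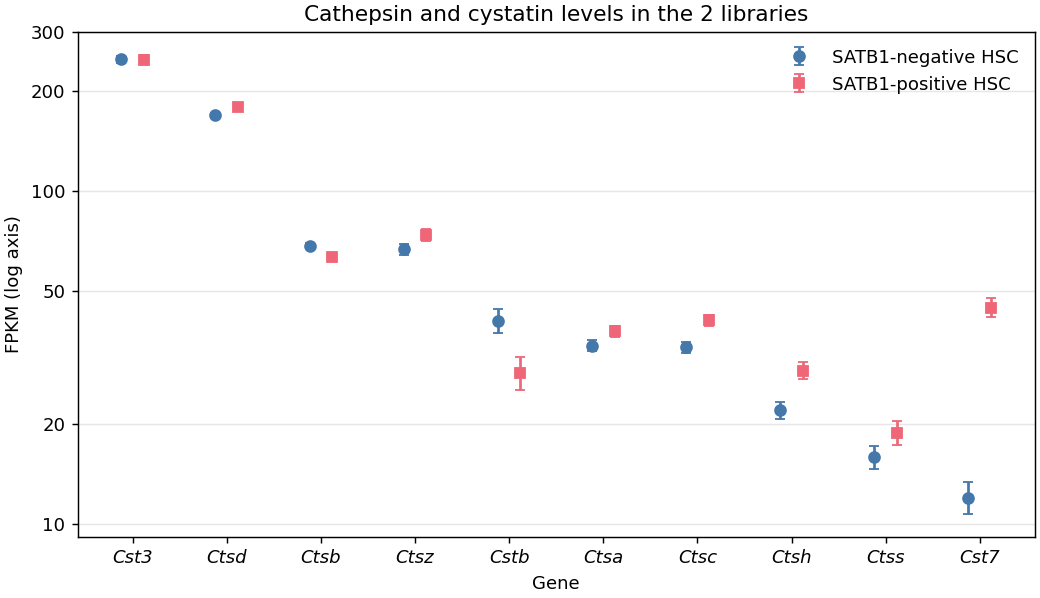
Level of each gene in FPKM (log axis) in the SATB1-negative (circles) and SATB1-positive (squares) library, 1 library each; bars are 95% Poisson intervals for counting error only. Cst3 is highest in both libraries, and Cst7 moves from the lowest of the 10 genes, at 11.99 FPKM, to 44.6 FPKM.

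The cystatins spanned the widest range of levels among the 10 genes. Cst3, at positions 148871722 to 148875692 on the minus strand of chromosome 2 (mm10), was the most abundant of the 10 in both libraries and more abundant than 97.8% of measured genes in each. Its fold was 0.999 (0.960 to 1.04), the only one of the 10 whose interval held 1. Cstb, on the plus strand of chromosome 10 at 78425669 to 78427622, was 1.43-fold lower in the Tomato-positive library (1.25 to 1.66; about 565 and 301 fragments). Its log2 ratio of -0.50 did not meet the rule, and it was the lowest of the 10.

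Cst7 lies on the plus strand of chromosome 2 at 150570415 to 150578944. In the Tomato-negative library it ranked last of the 10 genes; in the Tomato-positive library it stood behind Cst3, Ctsd, Ctsz and Ctsb and next to Ctsc, whose Poisson interval (39.3 to 42.6 FPKM) overlapped its own (41.8 to 47.6 FPKM). Its share of the summed FPKM of the 3 cystatins was 3.98% in the Tomato-negative and 13.9% in the Tomato-positive library, while that of Cstb was 13.5% and 8.83%. The sum itself changed little, from 301 to 321 FPKM, because Cst3 made up 82.5% and 77.3% of it. None of the 50-base words of the annotated Cst7 transcript occurs in a transcript of another gene, and no exon of another gene overlaps it.

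The 250 bases before the annotated Cst7 start are shown because this is the 1 member past the rule of size. They were read from RefSeq (build GRCm38.p6, the same assembly as mm10), plus strand, chr2:150570165-150570414, and hold 51.6% G and C:
Cst7: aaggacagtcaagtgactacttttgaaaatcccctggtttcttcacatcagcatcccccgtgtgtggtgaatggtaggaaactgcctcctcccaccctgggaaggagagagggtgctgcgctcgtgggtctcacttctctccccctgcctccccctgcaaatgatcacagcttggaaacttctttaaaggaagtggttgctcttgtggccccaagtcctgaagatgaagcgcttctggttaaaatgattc
None of the 3 motifs searched on both strands, given with the other windows further on, is in the Cst7 window, which says only that these letters are not there.

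Among the cathepsins, Ctsd, the main aspartic protease of lysosomes, was the most abundant, at 169 FPKM in the Tomato-negative and 178 FPKM in the Tomato-positive library. It made up 41.2% and 40.4% of the summed FPKM of the 7 cathepsin genes. Its fold was 1.05 (1.03 to 1.08). The gene is on the minus strand of chromosome 7 at 142375911 to 142388038, and 32.4% of the 50-base words of its transcripts also occur in Gm49369, a gene model on the same strand that shares its exons, so part of the Ctsd value could belong to that model. Ctsa, which encodes the protective protein that holds beta-galactosidase and neuraminidase in a complex besides its own carboxypeptidase activity, was at 34.3 and 37.9 FPKM (1.11-fold, 1.05 to 1.17). Its partners Glb1 and Neu1, chosen after their values were seen, were at 53.8 and 46.0 FPKM and at 7.37 and 8.96 FPKM, so the 3 genes of the complex did not all lie on 1 side of 1.

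The 5 cysteine cathepsin members lay close together in fold. Ctsz, a carboxypeptidase also called cathepsin X, was at 66.8 FPKM in the Tomato-negative and 73.7 FPKM in the Tomato-positive library (1.10-fold, 1.05 to 1.17). Ctsb, an endopeptidase that also acts as a carboxydipeptidase, was at 68.5 and 63.4 FPKM (0.926-fold, 0.899 to 0.953), the 1 cathepsin among the members with a lower value in the Tomato-positive library. Ctsb and Ctsz were next to each other in level, and their Poisson intervals overlapped in the Tomato-negative library but not in the Tomato-positive library, where Ctsz was the higher.

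Ctsc, the granule protease activator and target of cystatin F, was at 33.95 FPKM in the Tomato-negative and 40.9 FPKM in the Tomato-positive library (1.21-fold, 1.14 to 1.27). Set against its inhibitor gene, Cst7 had 0.353 FPKM for each FPKM of Ctsc in the Tomato-negative library and 1.09 in the Tomato-positive library. Ctsa and Ctsc had overlapping intervals of their level in the Tomato-negative library (33.0 to 35.6 and 32.7 to 35.3 FPKM), and their order there is not resolved even by counting error. Ctsh, an aminopeptidase, had the highest ratio of the cathepsin members, at 21.9 and 28.9 FPKM (1.32-fold, 1.21 to 1.43). Ctss, which cleaves the invariant chain in antigen-presenting cells, was the least abundant cathepsin member, at 15.8 and 18.7 FPKM (1.18-fold, 1.05 to 1.33).

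Summed over the 5 cysteine cathepsin members, the level was 207 FPKM in the Tomato-negative and 226 FPKM in the Tomato-positive library, a 1.09-fold difference. The 3 cystatins together had 1.46 FPKM for each FPKM of these 5 cathepsins in the Tomato-negative and 1.42 in the Tomato-positive library. The total of inhibitor transcripts relative to these cathepsins was thus nearly level, while Cst7 had a larger and Cstb a smaller share of it in the Tomato-positive library. In bulk RNA, more cells that express a gene and more RNA of it per cell cannot be told apart.

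**Figure D2:**
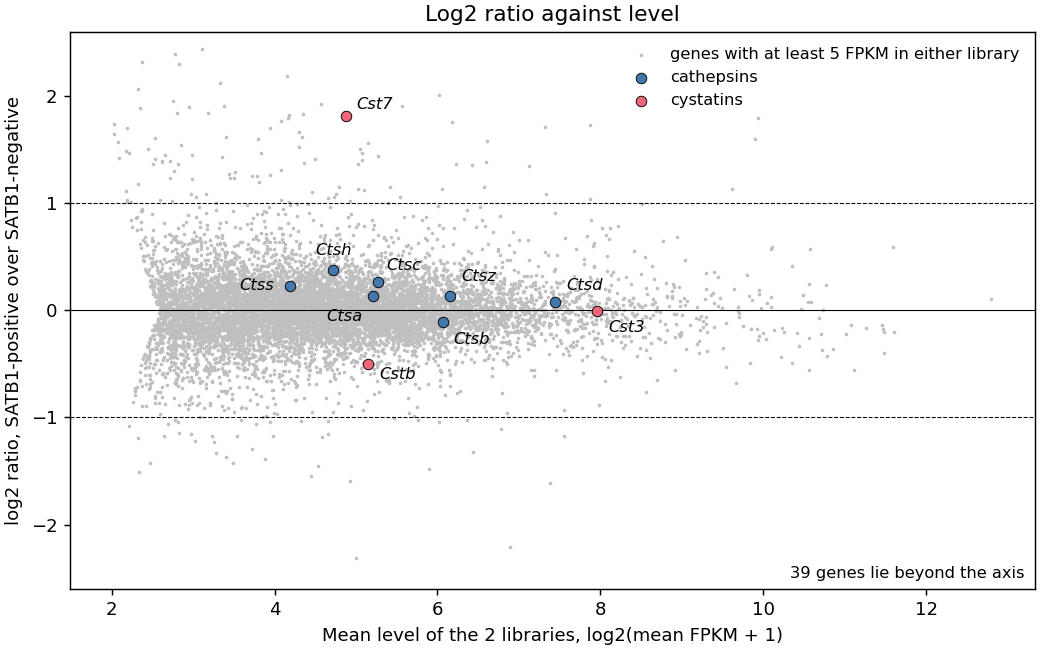
Log2 ratio, SATB1-positive over SATB1-negative, of log2(FPKM + 1) against the mean level of the 2 libraries, for the 9308 genes that reach 5 FPKM (grey); dashed lines mark log2 ratios of 1 and -1, and 39 genes lie beyond the axis. Cst7, at 1.81, lies above the upper line and the other members lie between the lines.

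The wider families held few other expressed genes. Of 24 cathepsin genes listed and present in the files (napsin A, Napsa, counted among them), 14 reached 1 FPKM in either library. The rest, 9 of them placental cathepsins and the other Ctsk, were at 0.147 FPKM or less. Of the 14, 1 was counted as higher and 0 as lower, and the 1 was not among the 10 members. It was Ctsg, cathepsin G, a serine protease of neutrophil primary granules that is no lysosomal cysteine protease and is itself activated by cathepsin C. Ctsg was at 31.9 FPKM in the Tomato-negative and 111 FPKM in the Tomato-positive library (3.47-fold, 3.21 to 3.75), and its log2 ratio of 1.76 was next to that of Cst7.

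Of the measured cysteine cathepsin genes outside the members, Ctsf and Ctsw lay further from 1 than the cysteine cathepsin members did. Ctsl lay about as far from 1 as Ctsh, and Ctso lay nearer to 1 than Ctsh. These genes were chosen for naming after their values were seen. Ctso was at 21.7 FPKM in the Tomato-negative and 18.1 FPKM in the Tomato-positive library, 1.20-fold lower (1.13 to 1.28). Ctsf was at 18.8 FPKM in the Tomato-negative and 10.8 FPKM in the Tomato-positive library, 1.74-fold lower (1.56 to 1.93). Ctsl, a cathepsin of most tissues, was at 21.2 and 15.9 FPKM, 1.33-fold lower (1.22 to 1.46). Ctsw, a cathepsin of cytotoxic lymphocytes, was at 9.63 and 14.8 FPKM, 1.54-fold higher (1.33 to 1.78). The aspartic protease gene Ctse was at 52.2 and 79.8 FPKM, 1.53-fold higher (1.46 to 1.60). Neither these 4 nor Ctso met the rule of size. Over all 10 papain-like cathepsin genes the summed level was 278 FPKM in the Tomato-negative and 285 FPKM in the Tomato-positive library.

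Of 24 cystatin genes listed and present, Cst3, Cst7 and Cstb were the 3 that reached 1 FPKM. The other 21 were at 0.279 FPKM or less in both libraries, and 11 of them were listed at 0 in both. They included the neutrophil stefins Stfa1, Stfa2 and Stfa3. The cystatin transcripts of these cells were thus nearly all from the 3 member genes.

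**Figure D3:**
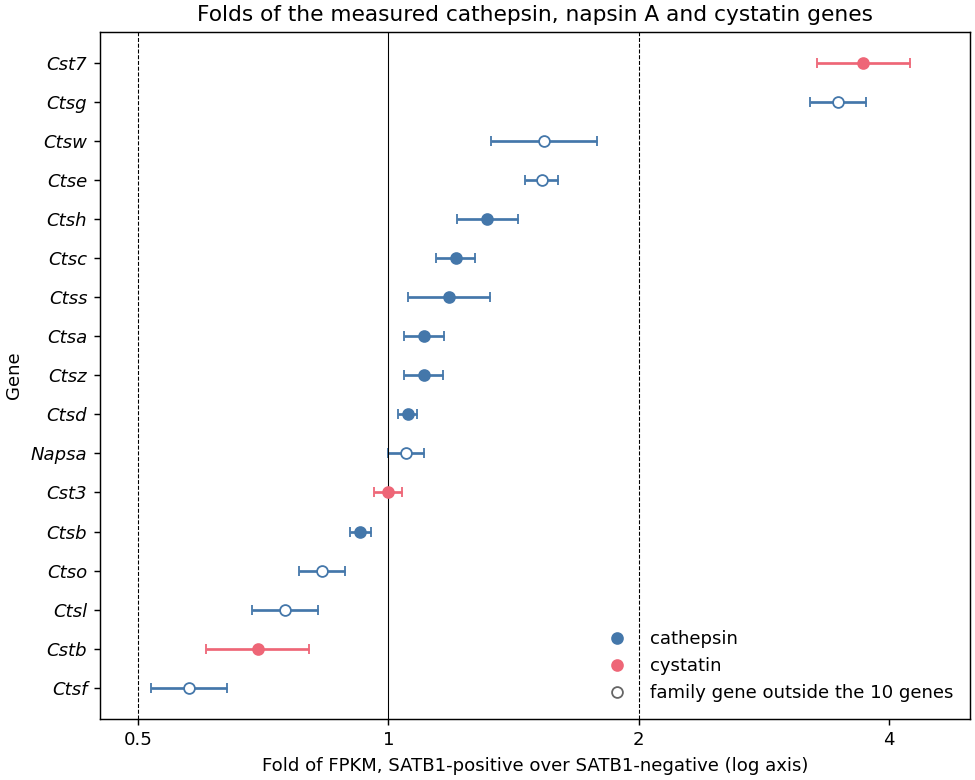
Fold of FPKM, SATB1-positive over SATB1-negative (log axis), of the 17 cathepsin, napsin A and cystatin genes measured (1 FPKM or more somewhere); bars are 95% Clopper-Pearson intervals for counting error only, open symbols are genes outside the 10 members, and dashed lines mark 2-fold. Cst7 (3.72) and Ctsg (3.47) lie above 2-fold and no gene lies below the lower line.

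The substrates of cathepsin C differed more than cathepsin C itself. Of 13 listed granule serine protease genes, 7 reached 1 FPKM, 4 were counted as higher (Gzmb, Mcpt8, Ctsg and Elane) and none as lower. Their median log2 ratio was 1.15. Of the 7, Gzma, Gzmb and Gzmm reached 1 FPKM in the Tomato-positive library alone, which fixes their sign. Gzmb, granzyme B of cytotoxic lymphocytes and mast cells, was at 0.926 FPKM in the Tomato-negative and 7.07 FPKM in the Tomato-positive library (7.64-fold, 5.41 to 10.9). Mcpt8, a basophil protease gene, was at 24.8 and 103 FPKM (4.16-fold, 3.78 to 4.59). Their activator Ctsc, at 1.21-fold, and its inhibitor Cst7, at 3.72-fold, thus stood far apart in size. Of 9 listed serpin genes, most of which encode inhibitors of serine and some cysteine proteases, 8 reached 1 FPKM, with a median log2 ratio of -0.31. Only 6 of these reached the 5 FPKM that the rule asks for, and 0 met it. Serpina3g had the top level, 208 and 142 FPKM.

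Cst7 is expressed by several mature blood cell types. Some lists of mature cell markers held genes counted as higher in the Tomato-positive library, and others held none. Of 14 T and NK cell markers in the files, 8 were counted as higher and 0 as lower, and none was at 0 in either library. Among the 14, 5 reached 1 FPKM in the Tomato-positive library alone, which fixes their sign. The summed level was 189 and 448 FPKM, most of it from markers not named here. Il2rb was at 1.69 FPKM in the Tomato-negative and 13.6 FPKM in the Tomato-positive library, Cd3e at 2.76 and 15.4 FPKM, Ccl5 at 8.88 and 36.7 FPKM and Cd3g at 2.95 and 13.2 FPKM. Of 9 mast cell and basophil markers, 6 were counted as higher and 0 as lower, with sums of 166 and 590 FPKM. Cma1, Tpsb2 and Tpsab1 did not reach 1 FPKM in either library. They were at 0 in the Tomato-negative library and at 0.73, 0.72 and 0.042 FPKM in the Tomato-positive library. Beside Mcpt8, Cpa3 was at 18.9 and 74.0 FPKM, Fcer1a at 1.75 and 9.70 FPKM and Ms4a2 at 2.03 and 9.94 FPKM. Of 10 neutrophil markers, 2 (Mpo and Elane) were counted as higher and 0 as lower, and none was at 0. Of the 10, 5 lay above 0 and 5 below, with a median log2 ratio of -0.04. Camp, of secondary granules, was at 84.8 and 56.0 FPKM and Ltf at 66.7 and 47.1 FPKM (both chosen after their values were seen), while Mpo, at 437 and 1528 FPKM, and Elane, at 490 and 1081 FPKM, carried the sums of 1828 and 3554 FPKM. The part of these cell types in the Cst7 difference was not tested.

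The monocyte, macrophage and dendritic cell markers, whose cells are rich in Ctss, Ctsb and Ctsd, differed less. Of 14 such markers in the files, 10 reached 1 FPKM, and 9 of these lay above 0 in log2 ratio. Only 6 reached 5 FPKM, and none met the rule of size. Their summed level was 436 and 470 FPKM, of which Lyz2 alone had 395 and 416 FPKM, and none of the 14 was at 0 in either library. Their part in the cathepsin values was not tested. Of the 10 HSC markers, 9 had a ratio below 0 and 0 met the rule, and their median log2 ratio was -0.43. The lowest log2 ratio among these markers, -1.19, missed the rule only by its minimum of 5 FPKM. Kit had the top level of them, 318 and 286 FPKM, and none of the 10 was at 0 in either library. Of 9 endothelial and stromal markers, 4 (Col1a1, Pdgfrb, Col1a2 and Sparc) were counted as higher, with sums of 58.9 and 116 FPKM. Of 8 erythroid markers 1 (Hbb-b1) was, but 4 of the 6 measured lay below 0, with a median log2 ratio of -0.17 and sums of 65.6 and 65.4 FPKM. Of 7 platelet markers 1 (Ppbp) was, but 4 lay below 0, with sums of 489 and 396 FPKM. Of 8 B cell markers none was. No marker of these 4 lists was counted as lower, and Pax5 alone of them was at 0, in the Tomato-positive library.

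The rest of the lysosome was close to level between the libraries. In 6 lists of other lysosomal peptidases, glycosidases, lipases and sulfatases, membrane proteins, sorting factors, V-ATPase subunits and MiT/TFE and mTORC1 regulators, 96 of 97 genes in the files reached 1 FPKM. Only 90 reached the 5 FPKM that the rule of size asks for, and 0 of these were counted as higher or lower. Of the 96, 43 had a ratio above 0 and 53 below, with a median log2 ratio of -0.02 and a median absolute log2 ratio of 0.15. The 7 cathepsin members lay within this spread. Tpp1, a lysosomal tripeptidyl peptidase, was at 44.3 and 45.7 FPKM, and Hexa, the alpha subunit of beta-hexosaminidase, at 62.2 and 67.1 FPKM. Laptm5, a lysosomal membrane protein gene of blood cells, was at 350 and 405 FPKM. M6pr, a receptor that carries newly made cathepsins to endosomes, was at 229.9 FPKM in the Tomato-negative library and 1.09-fold lower in the other. Atp6v0e, a subunit of the pump that acidifies lysosomes, was at 178 and 153 FPKM, and Lamtor3, part of the mTORC1 anchor on lysosomes, at 59.2 and 46.6 FPKM. The class II presentation genes, where Ctss acts, had 9 measured members with a median log2 ratio of -0.06. Of these, 8 reached 5 FPKM and 0 were past the rule. H2-DMa had the top level, 144 and 139 FPKM.

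**Figure D4:**
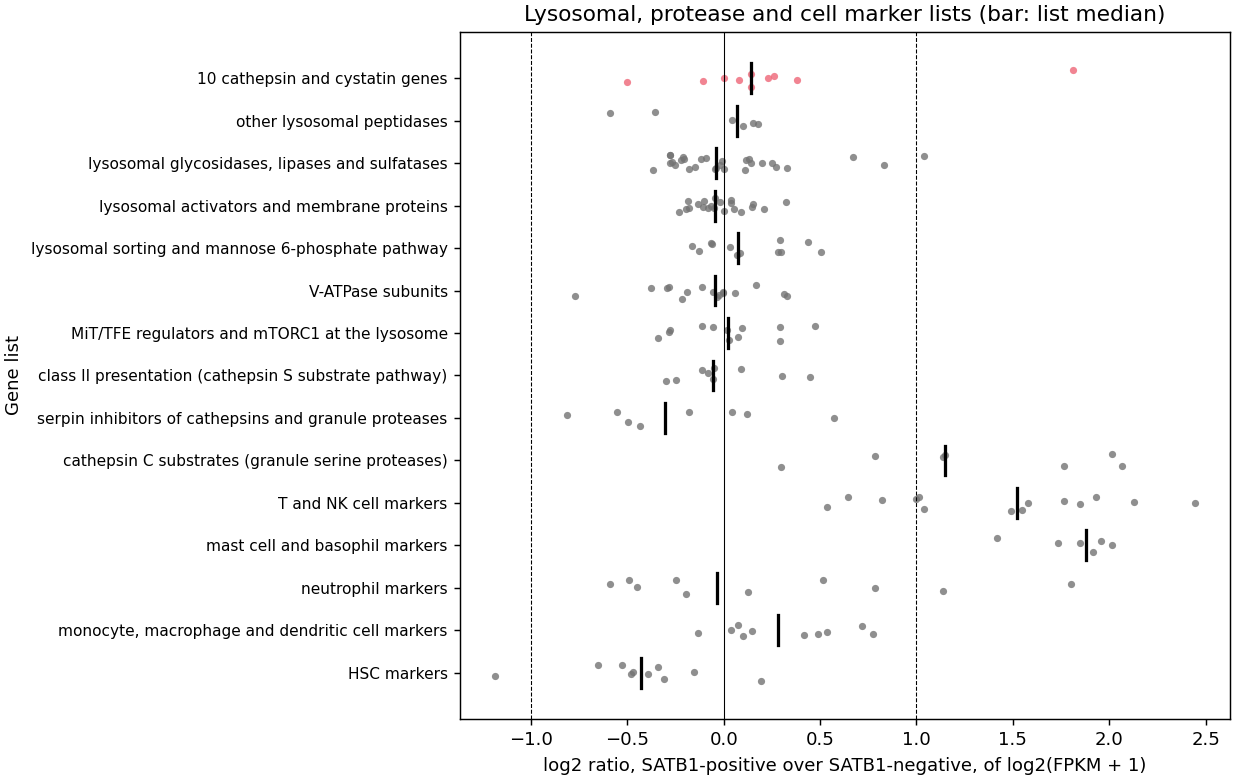
Log2 ratio, SATB1-positive over SATB1-negative, of every gene that reaches 1 FPKM in the lists shown (points; 1 gene each); black bars are list medians and dashed lines mark log2 ratios of 1 and -1. The 10 cathepsin and cystatin genes have a median of 0.14 with Cst7 alone beyond 1, while the T and NK cell and the mast cell and basophil lists lie mostly beyond 1.

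Promoter windows of 300 bases, 250 before to 50 after a RefSeq gene start, were found for 7 of the 10 members (Ctsa, Ctsc, Ctsd, Ctss, Ctsz, Cst3 and Cst7). They were searched on both strands for CACGTG, the core bound by MiT/TFE factors (the CLEAR element of lysosomal genes) and also by Myc and Max, for the longer TCACGTGA that contains it, and for GAGGAAGT, a form bound by PU.1-type ETS factors. Ctsa and Ctsd held TCACGTGA, and Ctsc and Ctss held GAGGAAGT. For Ctsa this holds for a window at an alternative start, and the window at the start of the gene span held none of the motifs. Of 32851 windows of that length, 7.15% held CACGTG, 0.974% TCACGTGA and 3.20% GAGGAAGT. Of the 77 genes of the 6 lysosomal lists with a window and at least 1 FPKM, 10 (12.99%) held TCACGTGA, beside 2.34% of 8505 genes with a window and at least 1 FPKM. A match describes letters in the window and is not evidence of binding.

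The stretches that hold these motifs are shown for the 4 members, 5′ to 3′ on the gene's strand, with the motif or its reverse complement in capitals. Offsets count from the start base as 0. The Ctsd stretch is chr7:142387909-142387936 on the minus strand, offsets -109 to -82. The RefSeq start it is counted from lies inside the gene span given above, and so does the stretch. The Ctsa stretch belongs to an alternative start inside the gene, chr2:164833750-164833794 on the plus strand, offsets -23 to 21, and holds the motif 2 times. The Ctsc stretch is chr7:88277924-88277951 and the Ctss stretch chr3:95526774-95526801, both on the plus strand:
Ctsd: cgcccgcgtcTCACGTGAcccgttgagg
Ctsa: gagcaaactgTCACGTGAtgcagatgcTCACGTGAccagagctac
Ctsc: tcactaactaACTTCCTCaggccacctc
Ctss: atgaaagttcACTTCCTCattgtggatg
Both genes with TCACGTGA, Ctsd and Ctsa, had folds of 1.05 and 1.11. Both with GAGGAAGT, Ctsc and Ctss, had folds of 1.21 and 1.18. Measured genes with TCACGTGA in a window had a median log2 ratio of 0.01, and those with any window one of -0.003. No such median was computed for GAGGAAGT, so the folds of these few genes do not compare the motifs.

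Over the 2 libraries, the genes whose pair of levels lay nearest to that of Cst7 by Euclidean distance in log2(FPKM + 1) were Trappc3 (distance 0.414), Col1a1 (0.470) and Hk3 (0.477). Nearest to Cstb, the member with the lowest ratio, were Oasl2 (0.0209), Spn (0.0436) and Prcp (0.0653). With 2 points per gene these distances describe level and ratio only. Prcp, a lysosomal carboxypeptidase gene of the peptidase list, was at 42.5 and 27.9 FPKM.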

How the data were processed

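Gene expression was measured in 2 libraries of sorted mouse HSCs, 1 per group. The deposited files hold, per their headers, FPKM for each gene symbol, as computed by the authors. Per the labels' protocols, the extraction was a miRNeasy one of total RNA, and libraries came from the SMARTer Stranded RNA-Seq kit (Clontech). The submitters' processing notes name Cufflinks 2.2.1, TopHat2 2.0.13, SAMtools 0.1.19, Bowtie2 2.2.3 and mm10; their settings, the annotation and any use of strand: not given in the sources used here. Exons of Ctsa, Ctsb and Ctsz overlap genes on the opposite strand, whose reads could be shared if strand was ignored.

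In 25 of 23235 rows per file the symbol had become a date, and these were left out. Depth was estimated from low FPKM of single-exon genes with 1 transcript and over 600 bases in GENCODE M21, searching for the depth (in steps of 20000 fragments) and the length offset (150 to 260 bases in steps of 5) that made most values whole within 0.05 fragments. With 205 bases, 66.9% of 166 values of the SATB1-negative and 66.2% of 198 of the SATB1-positive library were whole. The search chose this share, so the depth is approximate, and intervals do not cover its error. Fold intervals are exact Clopper-Pearson 95% intervals on the split of estimated fragments, using the shortest RefSeq-linked transcript; PCR copies count as separate fragments, so they can be too narrow. With 1 library per group no test was possible, and the smallest sampling unit is the library. The rule of size used a pseudocount of 1 FPKM, which understates the difference of low genes. Measured genes are those that reach 1 FPKM somewhere; a gene that reached it in 1 library alone could only differ toward that library.

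The members, the 23 gene lists and the naming rule were chosen with earlier results of these data known. The rule named the 10 members; from each list up to 2 highest and 2 lowest genes past the rule of size (up to 4 for marker lists) or else the most abundant gene; and the 3 genes nearest to the members with the highest and lowest ratio. Protein sequence features were not analysed here. Computation used Python 3.11.15, NumPy 2.4.6, pandas 2.3.3, SciPy 1.17.1 and Matplotlib 3.10.9. The calculations were tested on simulated data. There the depth search was given the true length offset, so the search for the offset was not tested. Alternatives were pseudocounts of 0.1 and 5, 3 other scalings, other minimum levels, other fold thresholds and the longest transcript.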

Additional observations from a re-analysis of the deposited data

How the results depend on the processing

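Cst7 was the 1 member past the rule of size under both other pseudocounts, all 3 other scalings, every other minimum level and a 1.5-fold threshold; with a 4-fold threshold 0 members passed. Its log2 ratio was 1.55 with a pseudocount of 5. The median log2 ratio of the members lay between 0.13 and 0.14 under the pseudocounts and scalings. Cst3, level in the FPKM, was the only member whose sign changed, above 0 after rescaling to TPM, which have a fixed sum. Over all genes, 122 were counted as higher and 64 as lower; these became 68 and 36 with a pseudocount of 5, 174 and 100 with TPM (which weighs the pseudocount and the minimum less), 24 and 25 with a 4-fold threshold, where the split shifted toward lower, and 354 and 270 with a 1.5-fold threshold. With the longest transcript each member's interval stayed on the same side of 1. Leaving out a replicate was not possible with 1 library per group. No paired analysis was possible because each group has 1 library. Depth limits genes near 0: 1 fragment of a 1 kb transcript equals 0.0286 FPKM (Tomato-negative) or 0.0375 FPKM (Tomato-positive).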

Other observations

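Outside the 10 genes, some lysosomal genes had ratios further from 0 than any cathepsin member; they were chosen after their values were seen. Gla, alpha-galactosidase A, was at 1.38 FPKM in the Tomato-negative and 3.90 FPKM in the Tomato-positive library, 2.82-fold higher (2.31 to 3.47), and misses the rule of size only by its minimum of 5 FPKM. Acp5, the tartrate-resistant acid phosphatase, was at 4.43 and 8.66 FPKM, 1.96-fold higher (1.61 to 2.38). Arsb, arylsulfatase B, was at 12.2 and 19.96 FPKM, 1.64-fold higher (1.53 to 1.75). Prcp was 1.52-fold lower (1.44 to 1.61). The lowest log2 ratio of the 6 lysosomal lists, -0.77, was that of the V-ATPase subunit gene Atp6v0c. It was at 2.68 and 1.15 FPKM, 2.33-fold lower (1.52 to 3.63) and under the minimum of 5 FPKM. Atp6v0c-ps2, by its name a pseudogene of Atp6v0c, had a mean level of 7.42 in log2(mean FPKM + 1) and a log2 ratio of 0.12. Whether reads of Atp6v0c were assigned to that copy was not tested. Among the inhibitors, Serpinb1a, which encodes an inhibitor of neutrophil serine proteases, was 1.49-fold higher (1.44 to 1.55) and Serpina3g 1.47-fold lower (1.42 to 1.52). These intervals cover counting error only, and no difference has a replicate check.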
